A study of Homo sapiens with 6 samples.

Results

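ABCA12 and 7 neighbours on chromosome 2 were followed through 6 RNA-sequencing libraries of HEK293 cells, a human embryonic kidney line grown in culture. The members were taken by gene name from a table of 58735 genes, and all 8 were found once each. They were chosen by the FPKM of ABCA12, which was lower in one line than in the other, and by their position near it. That difference is therefore a description without a test, and the same holds for the other members in that comparison. One line stably expressed tensin 2 in the Y483E form, with glutamate in place of a tyrosine, and the other expressed the Y483F form, with phenylalanine there, with 3 libraries each. Both lines carry a transgene. An untransfected or wild-type tensin 2 line was not analysed here. The series text names 2 cell lines without giving the number of clones. If each form was 1 line, the substitution and other differences between the lines cannot be told apart. Tensin 2 is a focal adhesion protein. Glutamate serves as a stand-in for a phosphorylated tyrosine, and phenylalanine as a residue that cannot be phosphorylated. The labels call the libraries biological replicates without naming separate cultures, and each p-value therefore reflects only how far these libraries spread. As in any bulk sample, fewer cells expressing a gene and less RNA per cell cannot be told apart.

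ABC transporters use ATP to move substrates across membranes, and the ABCA subfamily mainly moves lipids. ABCA12 is best known in the keratinocytes of the skin, where it loads lipids into the granules that build the skin barrier, and its loss causes harlequin ichthyosis. Its neighbours have unrelated tasks. AC072062.1 and AC016708.1 are noncoding transcripts annotated as antisense, and a current name of AC016708.1 is SNHG31. BARD1 is the RING partner of BRCA1 in a ubiquitin ligase for DNA repair, and XRCC5 is a subunit of the Ku heterodimer that binds broken DNA ends. ATIC catalyses the final steps of de novo purine synthesis. SPAG16 belongs to the central apparatus of motile cilia and sperm tails, and MREG takes part in melanosome transport.

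Reads per library ranged from 17204498 to 23284592. Levels are FPKM, in which reads are scaled to the exon length of the gene and to a library total. That total was not exactly the sum of the reads, at 17990244 against 17835265 in Y483F replicate 2. TNS2, whose reads can come from the transgene and from the cell's own gene, ranged from 0.753 to 1.05 FPKM in Y483E and from 1.07 to 1.16 FPKM in Y483F. It had 109 to 197 and 148 to 191 reads per library. Its lines did not overlap, as was so for 15.0% of the genes tested below. These values do not show how much of TNS2 came from the transgene. Y483F replicate 1 stood apart from its group. On the first principal component (36.4% of the variance over 12833 genes) its score was -5.94. The Y483E libraries scored -8.08, -6.30 and -21.4, and the other Y483F libraries 23.3 and 18.3. The second component (21.5%) set replicate 1 of both lines apart, at 17.0 in Y483E and 15.2 in Y483F, with the other 4 libraries between -13.9 and -2.01. Replicates 1, 2 and 3 of each line carry the library numbers 1, 4 and 5 in the labels. All 8 genes listed as expressed in HEK293 cells were measured above the filter used here, from IRS4 at a mean of 158.7 FPKM to NEFM at 0.238. Of 12 keratinocyte markers, 3 reached a mean of 0.1 FPKM (KRT10, SFN and FLG), and KRT14, IVL, DSG1 and LOR had 0 reads in all 6 libraries.

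The positions are those of the authors' table and equal GENCODE 29 gene models on GRCh38. ABCA12 (ENSG00000144452) spans chromosome 2 from 214931542 to 215138428 on the minus strand, a body of 206887 bases with 9416 exonic bases. AC072062.1 (ENSG00000227769, 215004782 to 215085488, plus strand) lies wholly inside it. AC016708.1 (ENSG00000229267, 214810229 to 214963274, plus strand) covers the last 31733 bases of ABCA12. The exons of AC072062.1 share 58 bases with those of ABCA12, 1.52% of the 3813 exonic bases of AC072062.1, and those of AC016708.1 share 0. The protocol names both a directional and a non-directional second strand, so it was not known whether reads of the opposite strand were kept apart. In the shared exonic bases, reads of ABCA12 and its antisense partners therefore cannot be told apart. The other exonic bases of AC072062.1 also lie within the ABCA12 body. If strands were not kept apart, unspliced ABCA12 reads there would count for AC072062.1, which was not tested.

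**Figure D1:**
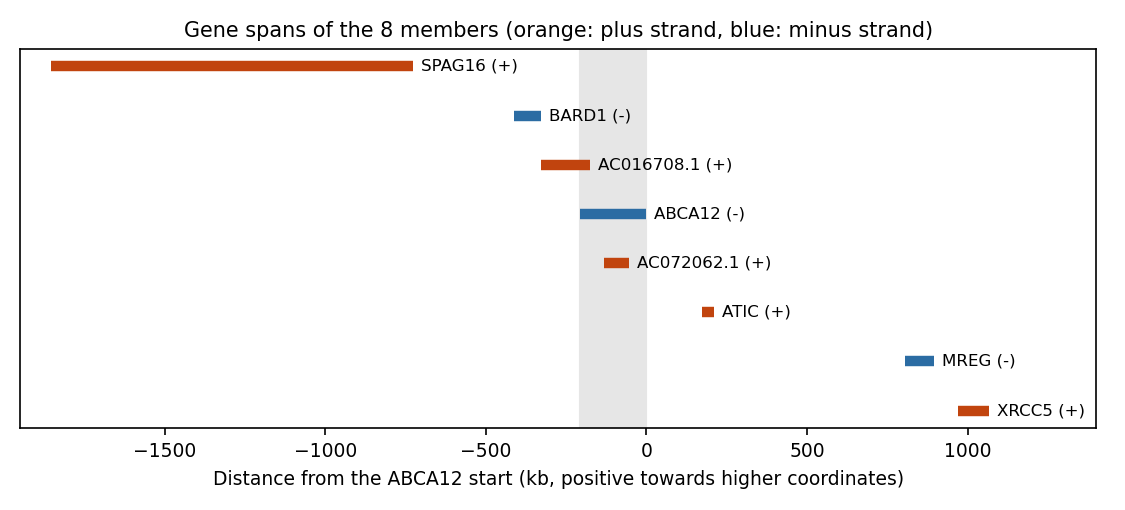
Gene spans of the 8 members by distance from the ABCA12 start in kilobases, with the ABCA12 body shaded. Orange bars are on the plus strand and blue bars on the minus strand, and AC072062.1 lies wholly inside the shaded body.

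The other members lie outside ABCA12. BARD1 (ENSG00000138376, 214725646 to 214809711, minus strand) lies 121.8 kb from it. The BARD1 start stands 518 bases from that of AC016708.1, with the pair pointing away from each other. ATIC (ENSG00000138363, 215311817 to 215349773, plus strand) begins 173.4 kb beyond the ABCA12 start. SPAG16 (ENSG00000144451, 213284379 to 214410501, plus strand) is 521.0 kb away, MREG (ENSG00000118242, 215942805 to 216034096, minus strand) 804.4 kb and XRCC5 (ENSG00000079246, 216107464 to 216206303, plus strand) 969.0 kb. Within these gene models BARD1, ATIC, SPAG16 and XRCC5 shared no exonic base with another gene, and MREG shared 137 with PECR on the same strand.

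The start regions of the members were of unlike base composition, and 4 of them are shown because they frame the gene that differed and the divergent neighbour pair that did not separate. They come from RefSeq on GRCh38.p14, which had windows for 6 of the 8 members, each with 250 bases before and 50 from the start site on, 5′ to 3′ on the gene's strand. Capitals mark CG dinucleotides. The outer RefSeq start of ABCA12 lies 198 bases beyond that of the authors' table, and the inner start lies 106540 bases further into the gene, within the span of AC072062.1.
ABCA12 outer start (chr2:215138577-215138876, minus strand): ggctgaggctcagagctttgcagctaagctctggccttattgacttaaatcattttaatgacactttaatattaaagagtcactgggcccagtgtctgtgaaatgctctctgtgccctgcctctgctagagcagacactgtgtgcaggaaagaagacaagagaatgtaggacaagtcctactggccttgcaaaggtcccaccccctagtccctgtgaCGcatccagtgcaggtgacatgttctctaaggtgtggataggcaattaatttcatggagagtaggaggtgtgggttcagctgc
ABCA12 inner start (chr2:215032037-215032336, minus strand): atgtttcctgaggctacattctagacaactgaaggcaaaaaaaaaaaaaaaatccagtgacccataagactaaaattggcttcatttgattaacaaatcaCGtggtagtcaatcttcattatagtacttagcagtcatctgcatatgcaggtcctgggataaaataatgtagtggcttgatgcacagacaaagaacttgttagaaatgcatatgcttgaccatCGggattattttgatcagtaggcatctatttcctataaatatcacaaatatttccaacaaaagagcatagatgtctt
BARD1 (chr2:214809634-214809933, minus strand): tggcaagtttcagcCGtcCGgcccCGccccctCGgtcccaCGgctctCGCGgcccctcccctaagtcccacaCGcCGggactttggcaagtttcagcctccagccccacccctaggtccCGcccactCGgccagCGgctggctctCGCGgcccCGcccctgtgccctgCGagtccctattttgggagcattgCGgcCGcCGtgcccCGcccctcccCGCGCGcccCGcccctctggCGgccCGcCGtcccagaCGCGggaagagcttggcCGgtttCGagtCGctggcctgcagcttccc
AC016708.1 (chr2:214809979-214810278, plus strand): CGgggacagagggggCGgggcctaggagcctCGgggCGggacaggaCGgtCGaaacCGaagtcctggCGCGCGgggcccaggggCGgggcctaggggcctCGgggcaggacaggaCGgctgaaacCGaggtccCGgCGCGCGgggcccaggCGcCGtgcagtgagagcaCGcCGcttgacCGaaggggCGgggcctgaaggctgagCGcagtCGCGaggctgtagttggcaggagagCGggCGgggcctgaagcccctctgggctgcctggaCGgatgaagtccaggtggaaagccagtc

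The ABCA12 windows held 1 CG dinucleotide at the outer and 2 at the inner start. As few as 1 was found in 11% of all 35116 windows, and as few as 2 in 18.2%, against a median of 14. The BARD1 window held 32 and that of AC016708.1 30. SPAG16 held 26 and ATIC 27. MREG had 3 windows, with 21, 5 and 0. The GC box GGGCGG, on either strand, is present in 45.0% of all windows. It occurred 5 times each at BARD1 and AC016708.1, 2 times at ATIC, once at SPAG16, 2 times in the CG-richest MREG window, and at neither ABCA12 start. The inner ABCA12 start alone among these windows held TATAAA, found in 11.5% of all windows. It also held CACGTG (7.3%) and CCAAT (34.6%), each once. These were not particular to it, since CACGTG occurred 2 times at ATIC. CCAAT occurred once each in the MREG windows with 21 and 0 CG dinucleotides. The AP-1 letters TGANTCA (7.7%) were in none of the 9 windows. GGGCGG and CACGTG each contain a CG, so these counts are not independent of the CG count. A match is only a run of letters.

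ABCA12 was measured at 0.0297, 0.0137 and 0.0288 FPKM in Y483E replicates 1, 2 and 3, from 5, 3 and 5 reads. In Y483F replicates 1, 2 and 3 it was at 0.347, 0.608 and 0.558 FPKM, from 56, 103 and 107 reads. Every Y483F library lay far above every Y483E library, and the lowest Y483F library was replicate 1. The group values were 0.0241 ± 0.00901 FPKM (SD, n = 3) and 0.505 ± 0.138. Over the pooled reads, 13 against 266, the level in Y483E was 0.0455 of that in Y483F, with an exact 95% interval from 0.0239 to 0.0791 that covers counting error only. Put the other way, ABCA12 was 22.0-fold higher in Y483F (12.6 to 41.9). On log2(FPKM + 0.1), where the pseudocount shrinks low genes, the difference was -2.26 ± 0.32 (SE). On recovered reads edgeR gave -4.41 ± 0.36, and the authors' deposited table gives -4.44. The limit that a count of 0 would allow, 3 reads, corresponds to between 0.0137 and 0.0186 FPKM for ABCA12, so the Y483E values stand at or just above that limit.

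AC072062.1, the antisense transcript inside ABCA12, separated the lines in the same direction. It was at 0.0293, 0 and 0 FPKM in Y483E replicates 1, 2 and 3, from 2, 0 and 0 reads, where 3 reads would give from 0.0337 to 0.0440 FPKM. In Y483F it was at 0.230, 0.306 and 0.284 FPKM, from 15, 21 and 22 reads. The groups did not overlap, though it is not known from which strand these reads came. Over the pooled reads, 2 against 58, the level in Y483E was 0.0321 of that in Y483F, with an exact 95% interval from 0.00379 to 0.121 for counting error only. The difference was -1.77 ± 0.35 on log2(FPKM + 0.1) and -4.72 ± 0.69 in edgeR, against -4.94 in the authors' deposited table. The FPKM of ABCA12 over that of AC072062.1 was 1.51, 1.99 and 1.97 in Y483F replicates 1, 2 and 3. These ratios bear on the Y483F libraries alone, since 2 of the Y483E libraries had no AC072062.1 read.

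**Figure D2:**
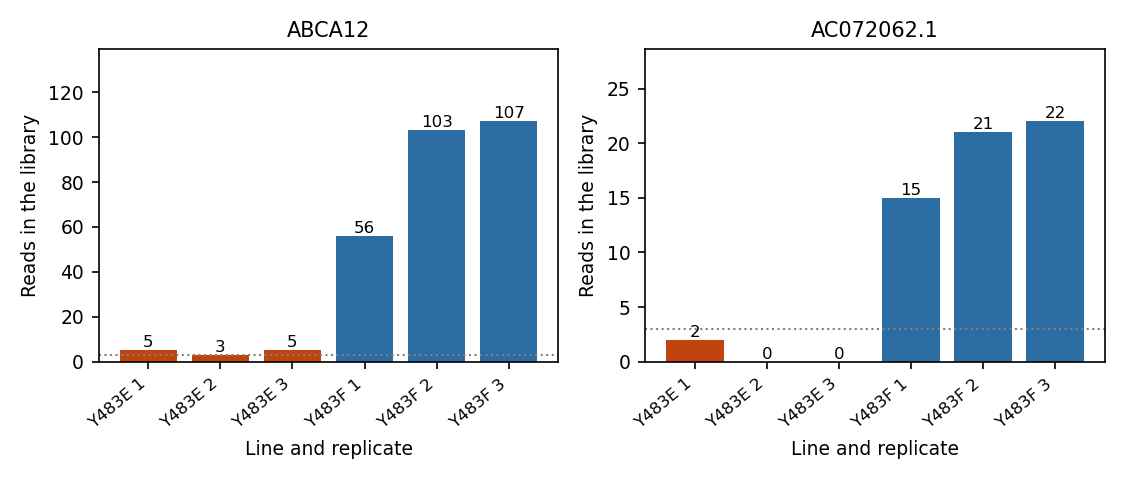
Reads of ABCA12 and AC072062.1 in each library, by line and replicate, with a dotted line at 3 reads. ABCA12 had 3 to 5 reads in Y483E libraries and 56 to 107 in Y483F libraries, and AC072062.1 had 0 to 2 and 15 to 22.

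AC016708.1, which also overlaps ABCA12, did not follow it. Its FPKM was 0.186, 0.203 and 0.257 in Y483E replicates 1, 2 and 3, and 0.305, 0.264 and 0.163 in Y483F replicates 1, 2 and 3. The highest and the lowest library were both Y483F, and the groups overlapped. The reads were 27 in Y483E and 28 in Y483F, a level ratio of 0.897. The exact 95% interval ran from 0.509 to 1.58 for counting error only. At this depth a moderate difference was not detectable. The ratio of 0.0455 for ABCA12 lay outside that interval, which leaves out the spread between libraries, so this is a description without a test. The log2 difference was -0.11 ± 0.29 (SE) and turned to 0.022 without Y483F replicate 1.

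Among the DNA repair members, BARD1 had 4.35, 5.27 and 5.33 FPKM in Y483E replicates 1, 2 and 3 against 4.85, 4.72 and 4.59 in those of Y483F. The Y483E libraries held both the lowest value and the 2 highest, so the groups overlapped, with a log2 difference of 0.07 ± 0.091. XRCC5 was the most abundant member, with 99.7, 94.2 and 98.6 FPKM in Y483E libraries against 101.8, 90.4 and 91.4 in Y483F. Its groups overlapped too, and the difference was 0.05 ± 0.057. The highest XRCC5 library of each line was replicate 1.

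ATIC, the purine enzyme nearest to ABCA12 on the side of higher coordinates, had 46.6, 47.6 and 49.5 FPKM in Y483E libraries against 51.5, 46.7 and 49.5 in Y483F. Its difference of -0.04 ± 0.049 was within the spread of the libraries. MREG had 5.60, 4.95 and 5.20 FPKM in Y483E libraries against 5.71, 4.86 and 5.02 in Y483F, a difference of 0.02 ± 0.084. Replicate 1 was the highest MREG library of each line. SPAG16 had 1.68, 2.26 and 2.07 FPKM in Y483E libraries against 1.60, 1.60 and 1.79 in Y483F. Only Y483E replicate 1 overlapped the Y483F libraries, and the difference was 0.25 ± 0.13. Its mean was the higher in Y483E, the opposite side to ABCA12.

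By mean level over the 6 libraries, on the per-length FPKM scale, the order was XRCC5 (96.0), ATIC (48.5), MREG (5.22), BARD1 (4.85), SPAG16 (1.83), ABCA12 (0.264), AC016708.1 (0.230) and AC072062.1 (0.141). XRCC5 and ATIC did not overlap with each other or with MREG, nor did BARD1 and SPAG16, or SPAG16 and ABCA12. MREG and BARD1 overlapped, as did ABCA12 with AC016708.1 and AC016708.1 with AC072062.1. The order of the last 3 differed by line. In Y483E AC016708.1 (0.216) was above ABCA12 (0.0241) and AC072062.1 (0.00978), and in Y483F ABCA12 (0.505) was followed by AC072062.1 (0.273) and AC016708.1 (0.244). The coefficient of variation over all 6 libraries was 105% for ABCA12 and 104% for AC072062.1, and between 3.97% (ATIC) and 23.5% (AC016708.1) for the other members. Within lines, ABCA12 varied by 27.4% in Y483F, where counting error alone gives 10.6%, and by 37.5% in Y483E, where it gives 48.0%. XRCC5 varied by 3.01% and 6.67% in Y483E and Y483F against counting errors of 0.973% and 1.02%. For AC016708.1 the spread of 17.3% and 29.9% was no larger than the counting error of 33.3% and 32.7%.

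**Figure D3:**
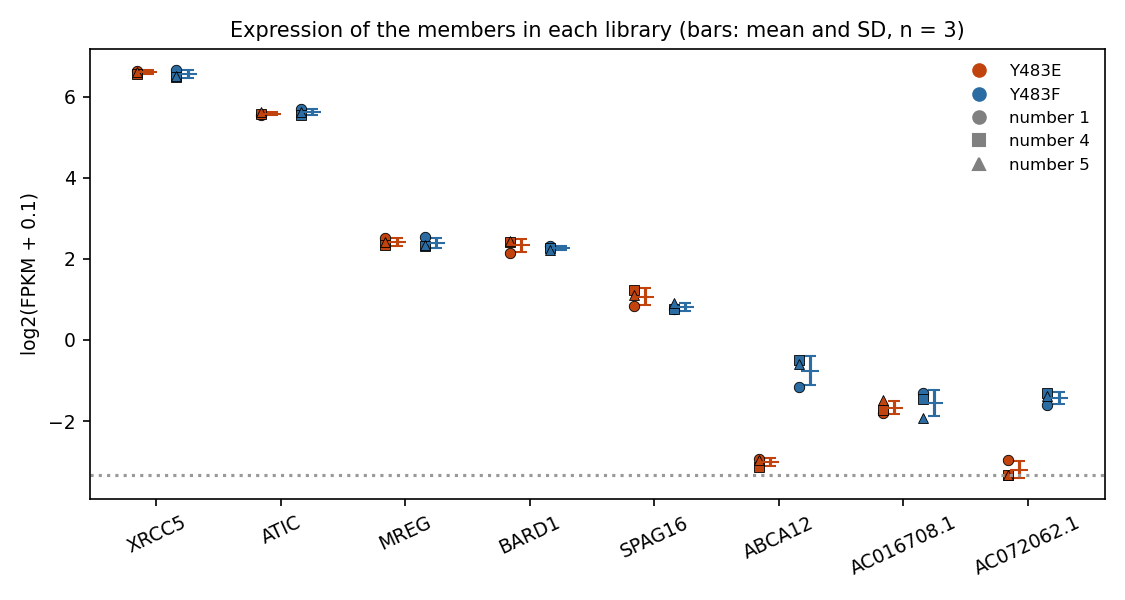
Expression of each member as log2(FPKM + 0.1) in every library, with the mean and SD of the 3 libraries beside the points, and a dotted line at 0 FPKM. The lines separate for ABCA12 and AC072062.1, and their points overlap for the other 6 members.

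The 3 libraries of each line did not overlap for 2 of the 8 members, both lower in Y483E, where 15.0% of the 20502 genes tested did not overlap in either direction and 7.37% did so with Y483E lower. In limma on log2(FPKM + 0.1), with Benjamini-Hochberg adjustment over these genes, 0 genes were called at an adjusted p of 0.05 (0.0%), and 2037 had an unadjusted p under 0.05. edgeR on the recovered reads called 7 of 15992 genes (0.0438%), among them ABCA12 and AC072062.1, with 5 of the 7 lower in Y483E (0.0313%). It tested 7 members, since AC016708.1 had too few reads for its filter. DESeq2 called 142 of the 11014 genes to which it gave an adjusted p (1.29%). Since ABCA12 was picked in this comparison, nothing is read from these counts about the members.

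The window reaching 5 Mb to each side of ABCA12 held 199 other genes, of which 66 were tested. The nearest tested gene on the side of lower coordinates was RPL10P6, a processed pseudogene of a ribosomal protein gene, 84.1 kb away. It had 0, 1 and 0 reads in Y483E and 1, 1 and 1 in Y483F, so that no level can be compared, and reads of its parent gene could have been placed there. On the side of higher coordinates the nearest was FN1, which encodes fibronectin, 222.0 kb away. FN1 had 2.50, 3.28 and 3.31 FPKM in Y483E libraries against 2.54, 2.92 and 2.75 in Y483F. Its lines overlapped, with a log2 difference of 0.13 ± 0.13 and an adjusted p of 0.759 in limma.

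Of these 66 genes 41 were higher in Y483E and 25 lower, with a median log2 difference of 0.060, against -0.005 over all genes tested, of which 48.8% were higher. The sides differed in direction. On the side of lower coordinates 5 were higher and 8 lower (median -0.124), and on the side of higher coordinates 36 and 17 (median 0.082), a difference between sides that was not tested. The 1263 tested genes of chromosome 2 other than the members, the window included, had a median of 0.013. limma called 0 genes in the window, where 7 had an unadjusted p under 0.05. By edgeR 0 of 56 were called. The differences ran from -1.03 (RPL10P6) to 0.99 ± 0.41 (WNT6), both of them genes with few reads. WNT6 had 11, 20 and 18 reads in Y483E and 2, 6 and 13 in Y483F, and its lines overlapped. The genes of the window whose lines did not overlap numbered 10 higher and 3 lower in Y483E, where 7.58% and 7.37% of all tested genes did so. ERBB4, a receptor tyrosine kinase 2393 kb away and named after its values were seen, had 1.19, 1.27 and 1.33 FPKM in Y483E libraries against 0.996, 0.893 and 0.963 in Y483F. Its log2 difference of 0.38 ± 0.12 was not called (adjusted p 0.426 in limma and 0.175 in edgeR).

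**Figure D4:**
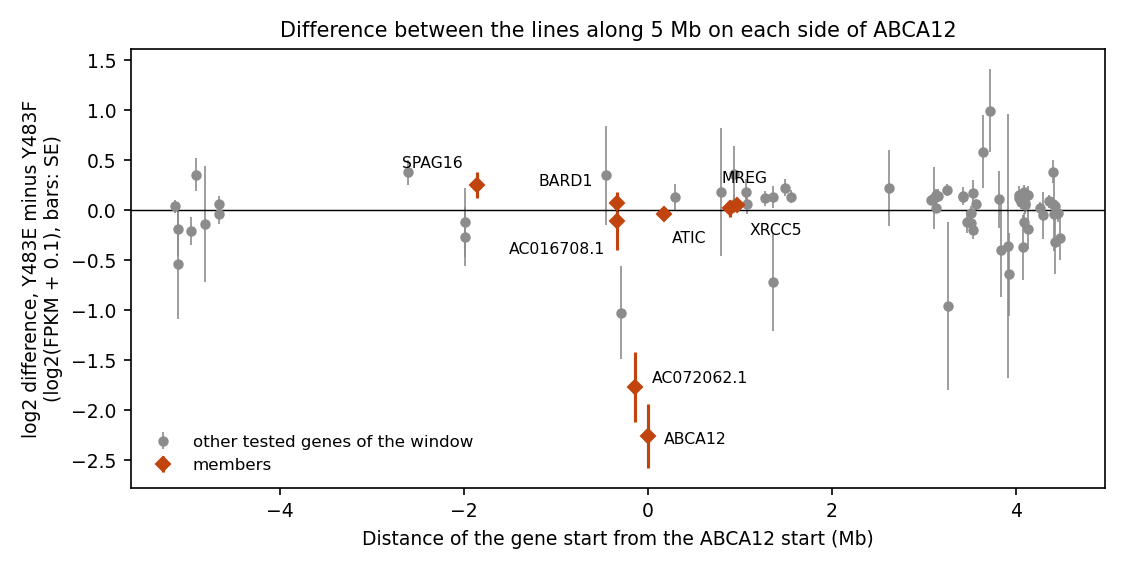
Difference between the lines on log2(FPKM + 0.1), with SE bars, for the 8 members (orange) and the 66 other tested genes (grey) by the distance of their starts from that of ABCA12 in megabases. ABCA12 at -2.26 and AC072062.1 at -1.77 lie below the other genes shown.

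Genes of the same families and pathways were compared next, from lists fixed with earlier results of these data known and with the members left out of each count. limma called 0 genes in every list, and so did edgeR. Of the 11 other ABCA transporters, 4 were tested, 2 of them higher and 2 lower in Y483E, with a median log2 difference of -0.002 and 0 at an unadjusted p under 0.05. ABCA3, a lipid transporter of lung lamellar bodies, averaged 12.8 ± 1.20 FPKM in Y483E against 11.8 ± 0.509 in Y483F (SD, n = 3). ABCA2 was at 6.61 ± 0.795 and 6.81 ± 1.42. ABCA12 lay below ABCA3, ABCA2, ABCA7 and ABCA5 in both lines. In Y483F it was the next highest of the subfamily at 0.505 FPKM, but in Y483E, at 0.0241, it also lay below ABCA8 (0.0624) and ABCA10 (0.0539).

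The skin lipid barrier list had 11 of 19 other genes tested, 5 higher and 6 lower, with a median of -0.013 and 1 at an unadjusted p under 0.05. SLC27A4, a fatty acid transporter, averaged 19.2 ± 0.459 FPKM in the Y483E and 19.4 ± 0.770 in the Y483F line, and ELOVL1, a fatty acid elongase, at 18.6 ± 0.317 and 17.6 ± 1.08. Nuclear receptors of the PPAR, LXR and RXR families were compared too, since ligands of some of them are known to raise ABCA12 in keratinocytes. Of these 8 receptors 7 were tested, 4 higher and 3 lower, with a median of 0.070 and 1 at an unadjusted p under 0.05. RXRB was at 15.1 ± 1.17 and 15.9 ± 1.58 FPKM and NR1H2 at 8.63 ± 0.889 and 7.74 ± 0.207. Keratinocyte markers gave 3 tested genes with a median of 0.068 and 0 at an unadjusted p under 0.05, led by KRT10 at 22.3 ± 1.97 and 21.0 ± 1.71 and SFN at 2.18 ± 0.524 and 2.39 ± 0.470 FPKM. The HEK293 list gave 4 higher and 4 lower, a median of 0.014 and 2 at an unadjusted p under 0.05. Its most abundant genes were IRS4, at 152.6 ± 0.980 and 164.9 ± 8.18 FPKM, and VIM, at 67.8 ± 5.03 and 60.5 ± 0.902.

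Partners of the coding neighbours in their pathways were compared in the same way. In homologous recombination 15 of 16 other genes were tested, 11 higher and 4 lower, with a median of 0.036 and 1 at an unadjusted p under 0.05. BRCC3, a deubiquitinase, averaged 20.0 ± 2.75 FPKM in the Y483E and 19.5 ± 2.51 in the Y483F line, and RBBP8, a resection factor, at 16.5 ± 0.345 and 13.6 ± 0.644. In end joining 9 of 10 were tested, 6 higher and 3 lower (median 0.016, 1 at an unadjusted p under 0.05). XRCC6, the Ku partner of XRCC5, was at 322.1 ± 8.50 and 321.4 ± 21.7 FPKM and PAXX at 65.3 ± 2.75 and 64.1 ± 5.72. In purine synthesis 10 of 10 were tested, 3 higher and 7 lower (median -0.021, 1 at an unadjusted p under 0.05). IMPDH2 was at 92.9 ± 5.03 and 85.8 ± 4.66 FPKM and PAICS at 63.1 ± 1.85 and 62.4 ± 5.24.

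Of 9 other central apparatus genes only 3 were tested, 1 higher and 2 lower (median -0.206, 0 at an unadjusted p under 0.05), and the most abundant, SPEF2 and CFAP69, averaged 0.373 ± 0.0632 and 0.335 ± 0.0327 FPKM in the Y483E line against 0.445 ± 0.0618 and 0.439 ± 0.106 in the other. SPAG16 at 1.83 FPKM was thus above every other listed gene of that apparatus. In melanosome and related organelle transport 12 of 13 were tested, 6 higher and 6 lower (median -0.003, 1 at an unadjusted p under 0.05). BLOC1S2 was at 20.5 ± 0.494 and 19.9 ± 0.817 FPKM and BLOC1S4 at 12.7 ± 1.15 and 13.2 ± 0.522.

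The comparison of the libraries numbered 1 with those numbered 4 and 5, with the line in the model, played no part in the choice of the members, and the labels do not say what the numbers stand for. Over all genes limma called 0 of 20502 (0.0%), although 2939 had an unadjusted p under 0.05. edgeR called 231 of 15992 (1.44%) and DESeq2 259 of 11592 (2.23%). No member to which either gave an adjusted p was called. In limma MREG had the lowest p among the members, while in edgeR it was SPAG16 and in DESeq2 XRCC5. It was higher in the library numbered 1 of both lines, by 0.14 in Y483E and 0.21 in Y483F, together 0.17 ± 0.056 (SE, adjusted p 0.281 in limma). XRCC5 was also higher in both, by 0.05 and 0.16, together 0.11 ± 0.040 (adjusted p 0.330). SPAG16 was lower in both, at -0.35 and -0.07, together -0.21 ± 0.12 (adjusted p 0.465). The remaining 5 members went opposite ways in the lines. ABCA12 was at 0.10 in Y483E and -0.61 in Y483F. Its joint difference was -0.26 ± 0.33 in limma and -0.62 ± 0.29 in edgeR on recovered reads. That of AC072062.1 was 0.06 ± 0.38 in limma. ABCA12 rests on 3 to 5 reads in each Y483E library and AC072062.1 on 0 to 2. The joint differences of both genes are therefore given as values without a test. AC016708.1 (adjusted p 0.923), BARD1 (0.625) and ATIC (0.890) were not called by limma either.

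**Figure D5:**
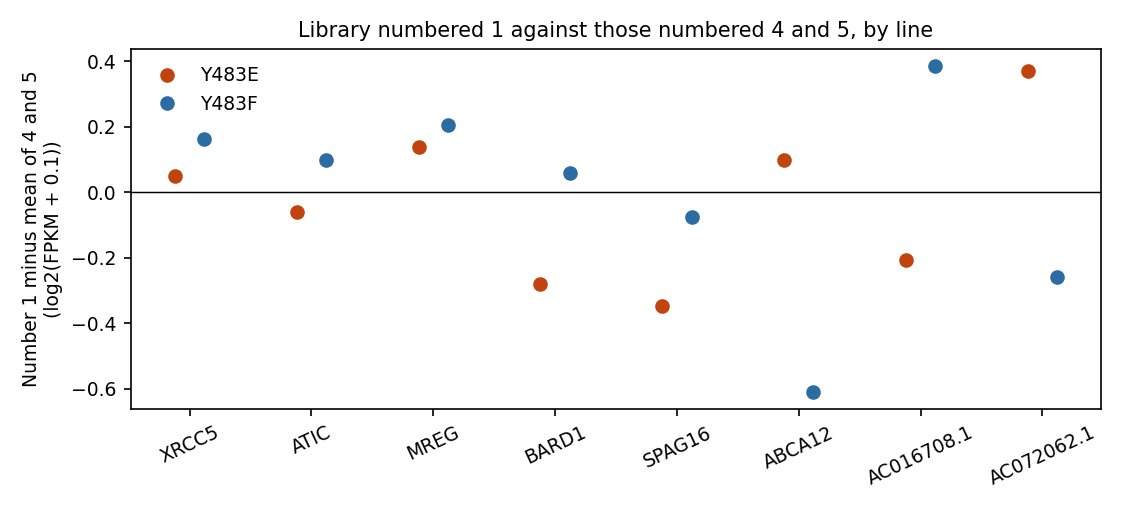
Library numbered 1 minus the mean of those numbered 4 and 5, on log2(FPKM + 0.1), for each member in Y483E (orange) and Y483F (blue). MREG and XRCC5 lie above 0 in both lines and SPAG16 below 0 in both.

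Whether the lines differed by the same amount at number 1 and at numbers 4 and 5 was tested as an interaction, in which the lone library numbered 1 of each line is assumed to vary like the others. limma called 0 of 20502 genes (0.0%), although 2546 had an unadjusted p under 0.05. edgeR called 368 of 15992 (2.3%) and DESeq2 111 of 6976 (1.59%), with no call among the members they gave an adjusted p. In limma the lowest p among the members was that of BARD1, at -0.34 ± 0.085 (SE, adjusted p 0.365 in limma). BARD1 was lower in Y483E at number 1 (4.35 against 4.85 FPKM) and higher at numbers 4 and 5 (5.27 and 5.33 against 4.72 and 4.59). ABCA12 and AC072062.1 were picked for, or moved with, the line difference and were near 0 in Y483E, so their interactions of 0.71 ± 0.46 and 0.63 ± 0.49 are given as values without a test. On recovered reads edgeR gave 1.29 ± 0.86 and 4.55 ± 2.14, where AC072062.1 rests on 2 reads in Y483E. Without Y483F replicate 1 the difference of ABCA12 between the lines was -2.46, and over the leave-one-out fits it ran from -2.46 to -2.13.

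The genes whose log2(FPKM + 0.1) was most like that of ABCA12 over the 6 libraries were sought among 20501 others by Pearson's r, as a description with no p, since a gene that differs between the lines scores high. They were MIR6855 on chromosome 9 (r = 0.998), HERC2P9 on chromosome 15 (0.995), CPSF6 on chromosome 12 (0.994), RPLP0P2 on chromosome 11 (0.993) and AL158063.1 on chromosome 13 (0.993). The likeness is of shape, not of size. CPSF6, a factor in pre-mRNA 3′ end processing, ranged from 27.3 to 27.5 FPKM in Y483E and from 28.6 to 29.3 in Y483F, and HERC2P9, a pseudogene whose reads may be shared with its copies, from 2.24 to 2.28 and from 2.62 to 2.85. MIR6855 had 0 reads in each Y483E library and 1, 2 and 2 in Y483F. AC072062.1 ranked 9 with r = 0.990. The other members ranked far lower, with r = 0.24 for ATIC, 0.16 for AC016708.1, -0.21 for MREG, -0.40 for BARD1, -0.49 for XRCC5 and -0.69 for SPAG16.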

How the data were processed

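Poly-A RNA of 6 HEK293 libraries was measured. DESeq, DESeq2, featureCounts (1.5.0-p3), StringTie (1.3.3b) and HISAT2 (2.0.5) are named, without roles, per the submitters' processing notes. Which genome build the reads were aligned to was not given in the sources used here. The positions of 58690 of 58735 genes equal GENCODE 29 on GRCh38. The authors deposited FPKM for all genes, and read counts, FPKM and log2 fold changes of Y483E over Y483F for 1652 genes. Library totals came from the authors' counts and FPKM of those genes, and FPKM then gave whole reads, within 0.01 of a read, for 100% of values above 0. For these 1652 genes, from which the totals were taken, the recovered reads equalled the deposited counts.

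The test was limma 3.58.1 (trend) on log2(FPKM + 0.1), as a two-sided test of every gene averaging 0.1 FPKM or more, with Benjamini-Hochberg adjustment and a threshold of 0.05. A filter at 1 FPKM would have left out ABCA12 and both noncoding members. A mean over both lines lets a gene pass through the line in which it is high, as ABCA12 and AC072062.1 did. edgeR 4.0.16 (quasi-likelihood, TMM) and DESeq2 1.42.0 were run on recovered reads. The ± of an edgeR difference is its size divided by the square root of its F statistic, and so only approximates an SE. The independent filtering of DESeq2 was first run at its default and then set to the 0.05 threshold after its calls had been seen. The fits were checked on simulated data. Intervals are exact (Clopper-Pearson, 95%). The genes named were the members, the nearest tested gene on each side, called genes of the window, up to 4 called or the 2 most abundant genes per list, and the 5 most like ABCA12. ERBB4, WNT6 and the genes of the closing observations fall outside this rule and were chosen after their values were seen, and other genes are named only for their rank or as markers. Members and lists were chosen with earlier results of these data known. Other settings were pseudocount 1, other filters, median-of-ratios scaling, a number term, a replicate block, libraries numbered 4 and 5 alone, and leaving out each library. Median-of-ratios scaling hardly changed the FPKM, with the ABCA12 difference at -2.2581 against -2.2596, and so was barely a separate setting.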

Additional observations from a re-analysis of the deposited data

How the results depend on the processing

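For Y483E against Y483F the count of calls over all genes, 0 in limma, was 7 in edgeR, 142 in DESeq2 and 15 in the libraries numbered 4 and 5 alone, and 0 to 1 when any 1 library was left out, with 1 call without Y483E replicate 1, Y483E replicate 2 or Y483F replicate 3. For number 1 against 4 and 5 it was 231 in edgeR and 259 in DESeq2. For the interaction it was 8 with the filter at 1 FPKM, 662 with no filter, 368 in edgeR and 111 in DESeq2. It stayed at 0 in leave-one-out fits of both, and the interaction could not be fitted without a library numbered 1. In the window 0 other genes were called in any setting run. With the replicate block limma called 0 genes, with 2239 at an unadjusted p under 0.05. Same-numbered libraries deviated from their group means with correlations of 0.018, 0.046 and -0.015, so the numbers were not taken to pair them. Y483E numbers 1 and 4 correlated best with the same number in Y483F, and Y483E number 5 with Y483F number 1 (0.043). The second principal component did set replicate 1 of both lines apart from the other libraries. The difference of ABCA12 was -0.55 with a pseudocount of 1, -4.41 in edgeR and -4.44 in DESeq2, and that of AC072062.1 was -0.33, -4.72 and -4.94, since the pseudocount sets the scale of low genes. Signs turned for members near 0. In the libraries numbered 4 and 5 AC016708.1 was at 0.090 and ATIC at 0.014, and leaving out 1 library gave -0.29 to 0.022 for AC016708.1 and -0.029 to 0.086 for MREG. For number 1 against 4 and 5, AC072062.1 was at -0.016 with a pseudocount of 1 and -0.11 in edgeR. Leaving out 1 library there gave -0.61 to 0.10 for ABCA12, -0.26 to 0.37 for AC072062.1, -0.21 to 0.39 for AC016708.1, -0.28 to 0.058 for BARD1 and -0.059 to 0.099 for ATIC, with no call. The cause was not tested. AC016708.1 had 55 reads over the 6 libraries, which limits its precision.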

Other observations

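Some pathway relatives of the members were chosen after their values were seen and are given as values only. ABCA8, an ABCA transporter with 55 reads in all, averaged 0.0624 ± 0.0332 FPKM (SD, n = 3) in the Y483E line and 0.0180 ± 0.00698 in Y483F, and ABCA4, the retinal transporter, with 10 reads, at 0.0163 ± 0.00539 and 0.00409 ± 0.00356. Both were higher in every Y483E library than in any Y483F library, the opposite order to ABCA12, where 11.4% of the 31211 genes with a read did not overlap in either direction. Neither passed the filter of the limma test. TGM1, the transglutaminase that cross-links the cornified envelope, averaged 0.747 ± 0.191 FPKM in the Y483E line against 1.17 ± 0.222 and did not overlap between the lines (adjusted p 0.456 in limma). PPARG, a lipid-sensing nuclear receptor, was at 4.04 ± 0.285 and 3.38 ± 0.202 FPKM (adjusted p 0.438). RAB32, a small GTPase of melanosome biogenesis, was at 6.43 ± 0.955 and 4.43 ± 0.367 (adjusted p 0.352). GART, which acts before ATIC in purine synthesis, was at 57.1 ± 1.09 and 62.4 ± 3.10 (adjusted p 0.460), and LIG4, the ligase of end joining, at 6.63 ± 0.735 and 7.95 ± 0.163 (adjusted p 0.421). None of these 5 tested genes was called.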
